A study of Mus musculus with 6 samples.

Results

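The Ly49 receptors were read from every probe set whose array annotation gives only gene symbols that begin with Klra. There were 11 such probe sets among the 45037 tested, carrying 10 symbols, and 2 of them match a pair of Klra genes. They were followed in NK1.1+ natural killer (NK) cells from spleens of RAG-/- mice, animals without mature T and B cells, a deletion that every group shares. The surface markers CD27 and CD11b split them into 3 subsets that are usually read as a maturation series. The first, CD27+CD11b-, is called CD11b- below, the CD27+CD11b+ cells are called double-positive, and the last, CD27-CD11b+, is called CD27-. Each was measured on 2 Affymetrix 430 2.0 arrays, 6 arrays in all. The labels give no strain or age of the mice. Nothing in them states that the arrays of a subset hold different animals, and the p-values therefore measure only how these arrays vary, which may be technical variation.

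Ly49 receptors are lectin-like proteins of the NK cell surface that bind MHC class I molecules or related ligands, and their genes lie side by side in the NK gene complex. Inhibitory members carry a cytoplasmic motif that recruits the phosphatase SHP-1, and activating members lack it and signal through the adaptor DAP12. Each NK cell expresses only some of the family, and in bulk samples fewer expressing cells and less RNA per cell cannot be told apart.

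In the RefSeq promoter table, 8 of the 10 member symbols had an entry, all on chromosome 6, and Klra16 and Klra22 did not. The entries for Klra9 and Klra3, the genes that share a probe set, were 95.4% identical over 284 aligned positions, and Klra5 was 90.0% identical to Klra3 over 229. These pairs are among the more alike, and other Klra pairs went down to 68.2% or aligned over as few as 8 positions. The transcripts that the probes bind were not compared here. Shown here are the promoters of these 3 genes, of Klra8 (the more upstream of its 2 listed starts) as a bright member, and of Klra17 as a member below background, each from 250 bases before to 50 bases after the listed start. Capitals mark a run of 17 bases, the longest that at least 6 of the 11 Klra genes in that table share, which was picked out after the sequences had been seen.
Klra5 (GRCm38.p6, chr6:129913175-129913474, minus strand): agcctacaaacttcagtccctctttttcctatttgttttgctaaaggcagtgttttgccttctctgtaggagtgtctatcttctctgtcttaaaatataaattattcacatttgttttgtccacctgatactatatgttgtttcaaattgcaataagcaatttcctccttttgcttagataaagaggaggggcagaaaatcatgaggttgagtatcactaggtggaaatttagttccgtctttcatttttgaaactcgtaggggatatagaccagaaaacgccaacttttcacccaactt
Klra9 (GRCm38.p6, chr6:130193063-130193362, minus strand): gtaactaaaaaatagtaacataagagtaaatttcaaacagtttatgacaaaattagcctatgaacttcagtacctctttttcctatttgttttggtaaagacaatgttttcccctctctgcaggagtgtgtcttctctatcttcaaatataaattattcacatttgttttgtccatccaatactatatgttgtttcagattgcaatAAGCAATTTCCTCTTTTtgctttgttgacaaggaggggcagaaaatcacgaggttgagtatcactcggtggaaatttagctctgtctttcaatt
Klra3 (GRCm38.p6, chr6:130337577-130337876, minus strand): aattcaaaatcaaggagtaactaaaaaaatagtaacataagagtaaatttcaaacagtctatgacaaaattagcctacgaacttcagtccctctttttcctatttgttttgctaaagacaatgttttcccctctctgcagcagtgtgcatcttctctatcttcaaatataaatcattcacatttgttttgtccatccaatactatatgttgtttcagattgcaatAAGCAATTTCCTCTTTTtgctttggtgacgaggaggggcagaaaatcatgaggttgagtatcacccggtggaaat
Klra8 (GRCm38.p6, chr6:130129849-130130148, minus strand): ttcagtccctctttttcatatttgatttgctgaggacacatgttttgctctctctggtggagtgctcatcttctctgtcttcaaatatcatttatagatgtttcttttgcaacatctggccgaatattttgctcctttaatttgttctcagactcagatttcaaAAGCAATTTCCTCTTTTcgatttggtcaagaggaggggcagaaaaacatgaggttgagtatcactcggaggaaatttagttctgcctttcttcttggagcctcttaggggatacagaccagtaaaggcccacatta
Klra17 (GRCm38.p6, chr6:129876623-129876922, minus strand): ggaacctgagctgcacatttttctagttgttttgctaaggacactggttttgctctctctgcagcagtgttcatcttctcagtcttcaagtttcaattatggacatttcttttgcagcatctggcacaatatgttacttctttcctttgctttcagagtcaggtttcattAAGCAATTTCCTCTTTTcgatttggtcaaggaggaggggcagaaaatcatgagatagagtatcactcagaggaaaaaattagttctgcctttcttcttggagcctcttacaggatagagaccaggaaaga
The run was present in Klra17, Klra6, Klra4, Klra8, Klra9 and Klra3, and its choice fixed that at least 6 genes would hold it. It was found in 8 of all 32851 promoters of this length (0.0244%). These 8 include the Klra promoters from which it was chosen, with both overlapping starts of Klra8. Klra5, Klra2 and 1 of the 2 starts of Klra7 held it with 1 mismatch. Of the members below background that have a promoter entry, Klra17 held it exactly, and Klra2 and Klra1 did not. Of the binding motifs searched on both strands, the Runx motif TGTGGT was found in 1 of 13 Klra promoters (Klra1) against 16.8% of all promoters, the TCF/LEF motif CTTTGA in 3 (Klra6 and both starts of Klra7) against 16.0%, and the T-box motif GGTGTGA in 1 (Klra1) against 3.98%. The TATA motif TATAAA was found in 8 of the 13 (61.5%) against 13.6% of all promoters. A match is a description of the letters in this window only.

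Facts of the series that touch the results are these. The sort description of CD27- replicate 1 names the CD11b- gate although its title names the CD27- one, and the title was followed. Its values of 6.96 for Cd27 and 9.93 for Itgam, the gene of CD11b, lay beside 6.47 and 9.44 on CD27- replicate 2. All 10 NK cell markers measured were above background, while 5 of 9 T cell and 7 of 8 B cell markers were below it. All 6 markers of other innate lymphoid cells measured were above it, with list means of 8.81 and 9.31 in CD11b- and 7.04 to 7.41 on the other arrays. Il7r, Tmem176a and Tmem176b among them fell between the end stages, the list's median difference was -2.04, and the part of these cells in the Ly49 differences was not tested. A second division crossed the subsets: 3 unnamed probe sets averaged 12.57 to 12.81 on CD27- replicate 1 and on the second replicates of the other subsets (the on arrays), and 4.33 to 4.47 on the remaining 3 (the off arrays). The mean of 16 monocyte and macrophage markers was 7.77, 8.06 and 8.01 on the on arrays and 6.48, 7.29 and 7.10 on the off arrays, each in the order of the stages. Among them Fcgr1 and Vcan were below background in every subset. The means of neutrophil and conventional dendritic cell markers were also higher on the on array of every subset, and those of erythroid markers were lower.

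The members ranged from the brightest signals of the array to its floor. All values are log2 expression values, and background is 6.41, the 95th percentile of the means of 49 genes of other tissues. Of the 11 probe sets, 6 had a subset mean above that level and 5 stayed below it on every array. The levels of different probe sets are not comparable with each other as amounts of RNA, since each binds with its own strength. The ranking within an array shows only how far each signal stood above the rest of the table. The plot of all members by array shows this spread.

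**Figure D1:**
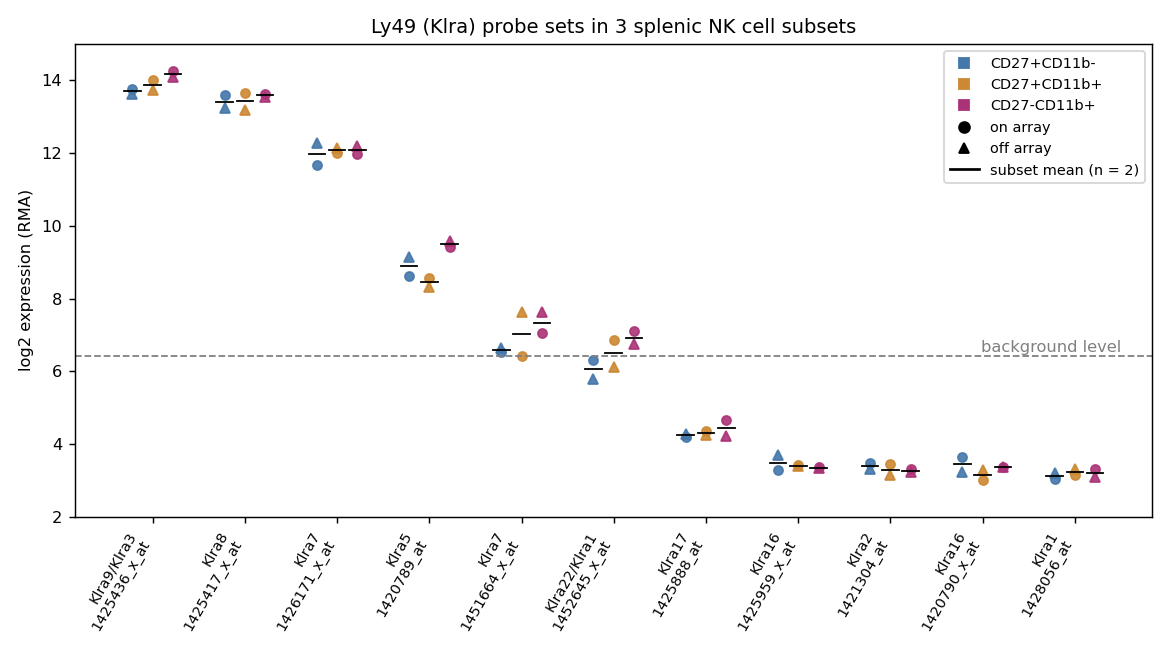
Log2 expression of the 11 Ly49 probe sets on each of 6 arrays, ordered by mean. Colours give the subset, circles and triangles the on and off arrays, black bars the subset mean (n = 2), and the dashed line the background level of 6.41. The Klra9/Klra3, Klra8 and one Klra7 probe set lie at 11.67 or above on every array, and 5 probe sets lie at 4.65 or below.

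The brightest member was the probe set shared by Klra9 and Klra3, which encode Ly49I and Ly49C, inhibitory receptors that bind class I molecules. It read 13.63 and 13.77 in CD11b-, 13.74 and 14.00 in double-positive and 14.26 and 14.09 in CD27-. Both CD27- arrays were above all 4 others, and the CD27+ subsets overlapped. Only 0.0533% of probe sets had a higher mean over the 6 arrays.

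Klra8 encodes Ly49H, the activating receptor that recognises a glycoprotein of mouse cytomegalovirus. Its probe set gave 13.23 and 13.59 in CD11b-, 13.19 and 13.66 in double-positive and 13.62 and 13.55 in CD27-. The subsets overlapped throughout. Klra7 encodes Ly49G, an inhibitory receptor. Its brighter probe set gave 12.26 and 11.67, 12.13 and 12.01, and 11.98 and 12.18 in the same order, again with full overlap.

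Klra5 encodes Ly49E, an inhibitory receptor best known from fetal NK cells. It measured 9.14 and 8.63 in CD11b-, 8.33 and 8.56 in double-positive and 9.42 and 9.58 in CD27-. The double-positive arrays were the lowest of the 6 and the CD27- arrays the highest, with no overlap between any pair of subsets. Its probe set is also the one bright or intermediate member whose name carries no mark of possible matches to other transcripts. The names of 7 of the 11 members end in _x_at, which marks such matches, and signals of near-identical Ly49 genes may mix in them.

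Near the background level lay 2 more probe sets. The dimmer one for Klra7 gave 6.64 and 6.52 in CD11b-, 7.63 and 6.41 in double-positive and 7.04 and 7.63 in CD27-. The double-positive arrays held both the highest and the lowest of the 6 values. The probe set for Klra22 and Klra1, the inhibitory receptors Ly49V and Ly49A, gave 5.80 and 6.31, then 6.13 and 6.87, then 7.10 and 6.74. CD27- lay above CD11b- without overlap, and double-positive overlapped with both. RefSeq now lists Klra22 as another name of Klra1, and the probe set that carries Klra1 alone stayed between 3.04 and 3.32.

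The members below background include those known from other cells. Klra17 encodes Ly49Q, a receptor of plasmacytoid dendritic and myeloid cells, and read 4.20 to 4.65. Klra2, the gene of the myeloid receptor Ly49B, read 3.14 to 3.49. Neither Klra17 nor Klra2 read above background on any array, on or off. Whether these probe sets would detect myeloid cells in such samples was not tested. Klra16, which encodes the activating receptor Ly49P known from the NOD strain, read 3.29 to 3.69 and 3.0 to 3.64 by its 2 probe sets.

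The first step, from CD11b- to double-positive cells, goes with the gain of CD11b. No Ly49 probe set passed the test: in limma (adjusted p under 0.05 over all probe sets) 0 of 11 were called, and 0 reached an unadjusted p under 0.05. The test called 0% of all 45037 probe sets in this comparison, and 2.97% had an unadjusted p under 0.05. The median difference of the 11 was 0.05 against -0.00 over all probe sets and 0.03 over the 17014 above background. Klra5 was the member whose arrays did not overlap, and it was lower in double-positive, where 15% of all probe sets were lower without overlap and 14.8% higher.

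The mean of Klra5 was 8.89 ± 0.36 (SD, n = 2) in CD11b- and 8.44 ± 0.16 in double-positive. The difference was -0.44 on the log2 scale (SE 0.21, 95% interval -0.94 to 0.06, limma adjusted p = 0.99997). Between the 2 off arrays it was -0.82 and between the 2 on arrays -0.07. It was -0.19 without CD11b- replicate 1 and -0.70 without CD11b- replicate 2. For Klra8 the difference was 0.01, with an interval of -0.49 to 0.52, and for the brighter Klra7 probe set 0.11, with an interval of -0.42 to 0.63. These intervals, which are for each probe set alone and not adjusted for the number of probe sets, leave room for changes of up to 1.43-fold and 1.55-fold upwards. A p that misses the threshold does not show that these receptors stay the same.

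The second step, from double-positive to CD27- cells, goes with the loss of CD27. Again 0 of 11 members were called, against 0.04% of all probe sets, and 1 member had an unadjusted p under 0.05, against 8.72%. That member was Klra5, at 9.50 ± 0.11 (SD, n = 2) in CD27- against 8.44 ± 0.16. The difference was 1.05, a 2.08-fold ratio (SE 0.21, 95% interval 0.55 to 1.56, limma adjusted p = 0.288). Between the off arrays it was 1.25, between the on arrays 0.86, and without CD27- replicate 1, whose sort description is in doubt, 1.13 (adjusted p = 0.504). Among all probe sets above background, 94.1% had a smaller range of subset means than Klra5. The median difference of the 11 was 0.16, against 0.00 over all probe sets and 0.11 over the 17014 above background.

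The shared Klra9/Klra3 probe set differed by 0.31 (SE 0.16, interval -0.07 to 0.69, adjusted p = 0.658) and was higher on both CD27- arrays. It was 0.18 without double-positive replicate 1 and 0.44 without double-positive replicate 2. In all, 3 of 11 members were higher without overlap and 1 lower, against 20.7% and 16.8% of all probe sets. Klra16 made up the third higher and the lower one, by different probe sets that are both below background. Klra8 differed by 0.16 (interval -0.34 to 0.67) and the brighter Klra7 probe set by 0.01 (interval -0.52 to 0.54).

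The difference between the steps was tested directly for each member. For Klra5, which was lower after the first step and higher after the second, the steps differed by 1.50 (SE 0.36, interval 0.63 to 2.36, limma adjusted p = 0.99992). That test called 0% of all probe sets and 0 of 11 members, with 1 member and 2.54% of all probe sets at an unadjusted p under 0.05. Both steps share the double-positive arrays, so a low value there moves them in opposite directions.

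Between the end stages, CD11b- and CD27-, once more 0 of 11 members were called, against 0.639% of all probe sets, while 3 reached an unadjusted p under 0.05, against 14.9%. The plot of differences gives the members above background, which were chosen for their level. Over all 11 members the median was 0.17, against -0.01 over all probe sets and 0.13 over the 17014 above background. Without overlap, 4 of 11 were higher and 0 lower, against 24% and 22.8% of all probe sets. An F test over the 3 subsets called 0 of 11 members, against 0.206%, and 1 member, Klra5, had an unadjusted p under 0.05, against 10.2%.

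**Figure D2:**
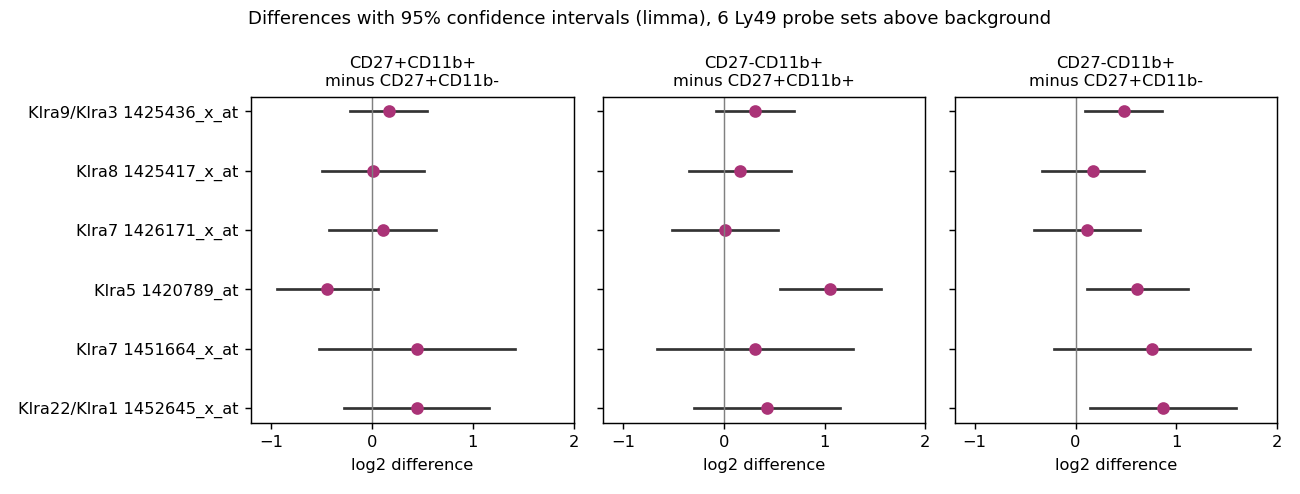
Log2 differences between subsets (points) with 95% confidence intervals from limma (lines) for the 6 Ly49 probe sets with a subset mean above background, in the 3 comparisons. The interval of Klra5 lies above 0 in the second panel, at 0.55 to 1.56, and no probe set passed the adjusted test in any panel.

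The largest of these differences was that of the Klra22/Klra1 probe set, from 6.05 ± 0.36 (SD, n = 2) to 6.92 ± 0.25. It came to 0.87 (SE 0.30, interval 0.14 to 1.59, limma adjusted p = 0.260). The lower mean is below background, so no fold change is given. Each subset holds both an on and an off array, so taking this division as a block cannot move the difference. With that block its SE was 0.15 and its limma adjusted p was 0.0736. The difference was 0.79 between the on arrays and 0.95 between the off arrays. This probe set also followed the division itself, reading higher on the on array by 0.51, 0.74 and 0.35 in the order of the stages. The monocyte and macrophage markers were higher there by 1.29, 0.77 and 0.91 in the same order. Between the end stages their mean also differed within each set, from 7.77 to 8.01 on the on arrays and from 6.48 to 7.10 on the off arrays, with a median difference over the list of 0.54. Other marker lists also followed the division. Neutrophil markers were higher on the on array by 1.06, 0.85 and 0.72, and conventional dendritic cell markers by 0.35, 0.25 and 0.47. Markers of other innate lymphoid cells were higher by 0.51, 0.26 and 0.04. Erythroid markers differed by -0.61, -0.77 and -0.57, and T cell markers by -0.23, -0.28 and -0.08. The part of any of these cells in the result was not tested.

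Klra9/Klra3 differed by 0.48, a 1.39-fold ratio (SE 0.16, interval 0.09 to 0.86, adjusted p = 0.247), 0.50 between the on arrays and 0.46 between the off arrays. Its means were 13.70 ± 0.10, 13.87 ± 0.19 and 14.18 ± 0.12 (SD, n = 2) in the order of the stages. In each set of arrays the value was higher at each later stage, and neither single step passed the test. Klra5 differed by 0.61, a 1.53-fold ratio (SE 0.21, interval 0.11 to 1.11, adjusted p = 0.253). The Klra5 difference was 0.35 without CD11b- replicate 2 (adjusted p = 0.592), 0.87 without CD11b- replicate 1 and 0.42 after cyclic loess. Without CD27- replicate 1 the differences of Klra22/Klra1, Klra9/Klra3 and Klra5 were 0.69, 0.39 and 0.69.

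The dimmer Klra7 probe set differed by 0.76 (SE 0.40, interval -0.21 to 1.73, adjusted p = 0.450), and the brighter one by 0.12 (interval -0.41 to 0.64). For the dimmer one it was 0.46 without CD27- replicate 2 and 1.05 without CD27- replicate 1. The annotation gives both to the same gene. Klra8 differed by 0.17 (interval -0.33 to 0.68). Of the members below background, no difference between the end stages exceeded 0.20 in either direction.

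**Figure D3:**
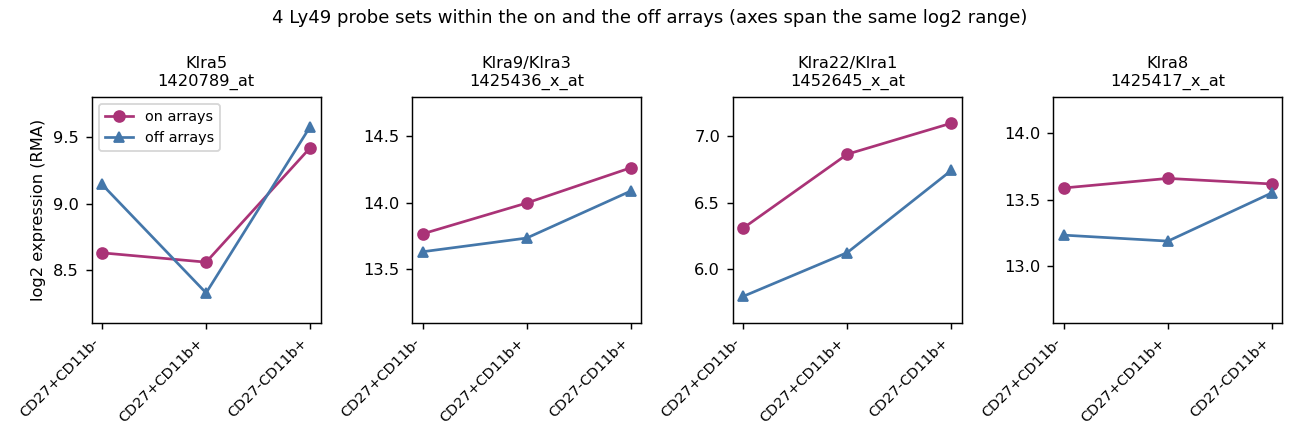
Log2 expression of 4 Ly49 probe sets in the 3 subsets, drawn separately for the 3 on arrays (circles) and the 3 off arrays (triangles), 1 array per point, with axes of equal span. Klra9/Klra3 and Klra22/Klra1 are higher at each later stage in both sets of arrays, Klra5 is lowest in double-positive in both, and Klra8 differs between the on and off arrays by 0.35, 0.47 and 0.07.

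Genes that act with the receptors were set beside them, by 1 probe set per gene. Of 16 signalling partners measured, 0 were called in any of the 3 comparisons. In the first and second steps 0% and 0.04% of all probe sets were called. Between the end stages 7 had an unadjusted p under 0.05, where 0.639% of all probe sets were called and 14.9% had such a p. All 16 were above background, and 4536 of the 17014 probe sets above background had such a p. The median difference of the 16 between the end stages was 0.40, against 0.13 over all probe sets above background. Tyrobp, the gene of the adaptor DAP12, was 12.97 in CD11b-, 13.16 in double-positive and 13.28 in CD27-, a difference between the end stages of 0.31 (limma adjusted p = 0.410). Ptpn6, which encodes the phosphatase SHP-1, differed by 0.13 (adjusted p = 0.820). Crk, an adaptor that takes part in inhibitory signalling, differed by 0.84, from 9.07 to 9.91 (adjusted p = 0.0753).

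Of 10 genes of class I molecules and their assembly, 0 were called in any comparison and 0 had an unadjusted p under 0.05. In the first step, the second step and between the end stages, 0%, 0.04% and 0.639% of all probe sets were called. Those with such a p made up 2.97%, 8.72% and 14.9%. Counts of 0 among 10 genes do not show that these genes stay the same. Their median difference between the end stages was 0.08. H2-K1, a class I heavy chain, was 13.97, 14.06 and 14.04 over the stages, and B2m, the common light chain, was 13.66, 13.77 and 13.85.

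Of 12 transcription factors linked to Ly49 expression, 0 were called in any comparison. Over all probe sets 0%, 0.04% and 0.639% were called in the first step, the second step and between the end stages. At such shares, counts of 0 among 12 genes do not show that these genes stay the same. Between the end stages 4 had an unadjusted p under 0.05, against 14.9% of all probe sets. All 12 were above background, and 4536 of the 17014 probe sets above background had such a p. The median difference of the 12 between the end stages was 0.23, against 0.13 over all probe sets above background. Tbx21, which encodes the NK cell maturation factor T-bet, was 10.80 and 10.43 in CD11b-, 11.16 and 11.10 in double-positive and 11.73 and 11.70 in CD27-. The arrays of its subsets did not overlap. Its difference between the end stages was 1.10 (SE 0.16, adjusted p = 0.0560). Runx1, of the Runx family, differed by 0.56 (adjusted p = 0.133) and Runx3 by -0.21 (adjusted p = 0.677).

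Among the other lectin receptors of the same gene complex, 2 of 15 measured rose between the end stages and 0 fell, against 0.357% and 0.282% of all probe sets, and 10 had an unadjusted p under 0.05, against 14.9%, with a median of 0.40. In the single steps 0 of 15 were called, against 0% and 0.04% of all probe sets. The 2 were Klrg1, an inhibitory receptor for cadherins, and Klrc2, a chain of the activating NKG2C receptor. Klrg1 read 9.57 and 9.85, then 11.47 and 11.39, then 13.37 and 13.08, an increase of 3.52 (SE 0.17, adjusted p = 0.00248). Klrc2 was below background in all subsets and differed by 1.05 (adjusted p = 0.0369). The interval of the Klrg1 increase, 3.11 to 3.93, lay above the intervals of all Ly49 members, the highest of which reached 1.73. No test of the difference between probe sets was made, and RMA differences of separate probe sets are only roughly comparable.

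How many of the 15 lectin receptors, or of all probe sets, had the same order of subsets as Klra5 was not counted. Klrb1b, an NKR-P1 lectin of the complex, had that order. It read 10.92 and 10.84, then 10.24 and 10.47, then 10.94 and 11.06, with differences of -0.53 (adjusted p = 0.99997) and 0.65 (adjusted p = 0.322) in the 2 steps.

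**Figure D4:**
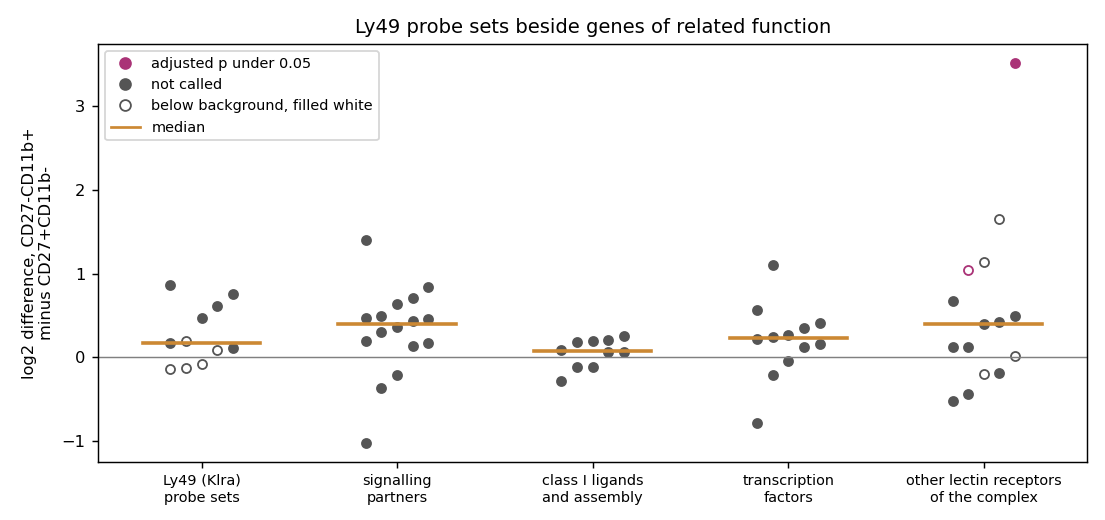
Log2 difference, CD27- minus CD11b-, of the 11 Ly49 probe sets and of 4 groups of genes, 1 point per probe set. Orange bars are medians, filled points are above background, and the magenta points, Klrg1 at 3.52 and Klrc2 at 1.05, had an adjusted p under 0.05.

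Genes with profiles most like a member were found by Pearson correlation over the 6 arrays, among 498 genes above background with a range of subset means of at least 1. The 6 values of a profile share their arrays, so the correlations are a description. Closest to Klra5 were H2bc21, a histone gene (0.94), 2810013P06Rik (0.87) and Zfp329 (0.87). H2bc21 averaged 7.96, 7.55 and 8.57 over the stages. Closest to Klra22/Klra1 were Ndnf (0.98), the membrane protein gene Emp1 (0.98) and Cd163, a scavenger receptor of macrophages (0.98). Cd163 averaged 5.64, 6.37 and 6.65, near or below background in the CD27+ subsets. Closest to the dimmer Klra7 probe set were Txnrd1, a thioredoxin reductase (0.94), Bpgm (0.90) and Hadha (0.89). Like that probe set, all 3 were higher on double-positive replicate 1 than on double-positive replicate 2, Txnrd1 at 10.04 against 8.92.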

How the data were processed

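RNA of 6 samples was measured on Affymetrix 430 2.0 arrays, per the labels. The deposited table holds log2 values. RMA is the method named by the submitters' processing notes, without a version. It equalises the arrays' distributions and compresses dim differences. Array medians lay between 5.26 and 5.35. Of 45101 probe sets, 64 were controls and were not tested. Symbols are those of the platform's annotation.

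Samples were grouped by title. One limma model (limma 3.58.1, R 4.3.3) with a mean per subset was fitted to all probe sets, with 3 residual degrees of freedom and Benjamini-Hochberg adjustment over 45037. Probe sets, not genes, were tested because some members match a pair of genes. The members, lists and tests were chosen with earlier results of these data known. Values are printed for members whose highest subset mean exceeded background, others as ranges, and listed genes by their brightest probe set. The code was tested on simulated data. Alternatives were blocks, an added constant of 32, a filter, cyclic loess, another variance prior, 1 probe set per gene, a probe set name filter and leaving out each array. No 2 arrays of a subset were identical (correlation 0.980 to 0.989).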

Additional observations from a re-analysis of the deposited data

Results flagged for a closer look

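Klra5 was picked out because both double-positive arrays lay below both CD11b- arrays and both CD27- arrays lay above both double-positive arrays. Over all probe sets, 15% were lower without overlap in the first step and 20.7% higher in the second. The share with both was not counted. The steps of Klra5 ran in opposite directions and differed by 1.50 on the log2 scale (SE 0.36, limma adjusted p = 0.99992 over all probe sets), so the difference did not pass. A block for the division into on and off arrays cannot move this difference, and with it the SE was 0.35 (limma adjusted p = 0.9997).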

How the results depend on the processing

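With 8 other settings and each of 6 arrays left out in turn, 0 of the Ly49 probe sets in the fit were called by limma in any comparison, the F test or the test of the steps, the fit with the replicate block included. In the 8 other settings, which keep all arrays, the members at an unadjusted p under 0.05 numbered 0 to 1 in the first step. They numbered 1 to 2 in the second and 1 to 4 between the end stages. With the on and off division as a block, the member counts were 1, 2 and 4 of 11 in that order. There 1875, 4964 and 7998 of all 45037 probe sets had such a p. With 1 probe set per gene the member counts were 0, 1 and 1 of 7, against 690, 2027 and 3437 of 18193. The differences between replicates 1 and 2 correlated at 0.61 between CD11b- and double-positive, where replicate 2 was the on array in both. The correlation was 0.06 between double-positive and CD27-, and -0.08 between CD11b- and CD27-. In CD27- replicate 1 was the on array, so replicate number and division are mixed in these correlations. They cannot settle whether the titles' replicate numbers pair the arrays. The replicate block left the number of members called at 0. The fit of 1 probe set per gene left out 4 members, both of those with a pair of symbols among them, and the fit without _x_at, _s_at and _a_at names left out 7 members. The 18 differences of the 6 members above background kept their sign in 217 of 228 refits. The exceptions were Klra8 and both Klra7 probe sets. Many of these refits could not change a difference, so the count overstates how stable the signs are. The blocks, the filters, the other variance prior and 1 probe set per gene return the same difference. So does leaving out an array of a subset that is not compared. With 1 array left out, Klra8 ranged from -0.22 to 0.25 in the first step, -0.0749 to 0.40 in the second and -0.0031 to 0.35 between the end stages. The brighter Klra7 probe set ranged from -0.19 to 0.40, -0.0897 to 0.11 and -0.18 to 0.41, and was -0.0642 in the second step after cyclic loess. The dimmer Klra7 probe set ranged from -0.17 to 1.06 and -0.30 to 0.92 in the steps. Klra5 ranged from -0.70 to -0.19 in the first step, 0.94 to 1.17 in the second and 0.35 to 0.87 between the end stages, and was 0.42 there after cyclic loess. Its adjusted p ran from 0.114 to 0.719 in the second step over all settings. Klra9/Klra3 ranged from 0.04 to 0.30, 0.18 to 0.44 and 0.39 to 0.56, and Klra22/Klra1 from 0.07 to 0.81, 0.06 to 0.80 and 0.61 to 1.12. The dimmer Klra7 probe set ranged from 0.46 to 1.05 between the end stages. Over all probe sets the calls in the second step and between the end stages, 18 and 288, were 5 and 430 with the on and off division as a block, 11 and 390 with the replicate block, 2 and 127 with 32 added, 40 and 447 with the other variance prior, and 54 and 617 with 1 probe set per gene. In the first step the last 2 settings called 13 and 22 where the others called 0 to 2. With 1 array left out the calls ranged from 0 to 415 in the second step and from 18 to 971 between the end stages, with the highest counts without CD27- replicate 2. With 2 arrays per subset the number of arrays limits the precision.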
